A study of Homo sapiens with 15 samples.

Results

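The long arm of human chromosome 6 (6q) was described through the peaks that 4 deposited lists placed on it. Members were the peaks whose centre lay beyond position 62000000 of chromosome 6 in hg19, which is just past the peak-free stretch at the centromere, from 58780317 to 61883192. The arm then ran for 109.0 Mb to the end of the last peak, at 171046286. It held 15539 of the 647617 peaks of the 4 lists: 4975 and 4803 of H3K4ox (replicates 1 and 2), 1699 of H2A.Z and 4062 of RUVBL2. A further 27 peaks lay between the peak-free stretch and the boundary and were left out. The short arm (6p), with 17847 peaks before that stretch, served for comparison.

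The cells were MDA-MB-231, an established breast cancer line of the triple-negative type, and each list came from chromatin immunoprecipitation followed by sequencing (ChIP-seq). The series holds 15 samples, of which 4 had a peak list: 2 libraries made with an antibody to H3K4ox described as handmade, and 1 each with commercial antibodies to H2A.Z and RUVBL2. The labels of these 4 libraries name no knockdown. The other samples, 1 input, 8 RNA-seq and 2 ATAC-seq libraries, are not part of the results. Whether the H3K4ox libraries are from different cultures is not stated, and the spread between them may be technical only.

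H3K4ox is the oxidised form of lysine 4 of histone H3 that LOXL2, a lysyl oxidase, leaves behind, and the title of the series ties LOXL2 to chromatin compaction. H2A.Z is a histone variant found at promoters and enhancers and in some silent chromatin, and it is placed in nucleosomes by exchange complexes. RUVBL2 is an ATPase subunit of those complexes. The long arm of chromosome 6 carries well-known genes such as ESR1, which encodes the oestrogen receptor alpha, and MYB, a transcription factor gene, and it is often partly lost in tumours. No gene annotation or genome of hg19 was used here, so sites are named by position alone.

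The arm was chosen by its peak counts, which were low for H3K4ox and high for H2A.Z and RUVBL2 relative to H3K4ox. Its segments from 65 to 70 Mb and from 95 to 100 Mb were chosen for their many H2A.Z peaks per H3K4ox peak. Densities and peak ratios are therefore given as descriptions, with no test. H2A.Z and RUVBL2 had 1 library each, which leaves no spread between libraries to test against. At the boundary, the first H3K4ox peaks inside scored 193 and 81.69 in replicates 1 and 2, and the last outside 69.06 and 62.04. For H2A.Z the first inside scored 76.56 and the last outside 87.71, and for RUVBL2 the first inside scored 72.01 and the last outside 280.5. The score of a peak is the authors' own, from their peak caller, in a unit that no label or header states. Sequencing depth is unknown, because the lists hold peaks and no reads.

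H3K4ox peaks were sparse on 6q. Replicate 1 had 45.6 peaks per Mb on 6q and 106.4 on 6p, and replicate 2 had 44.05 on 6q and 104.0 on 6p. RUVBL2 had 37.3 peaks per Mb on 6q and 66.2 on 6p. H2A.Z had 15.6 peaks per Mb on 6q and 27.4 on 6p. The 3 antibodies thus had lower densities on the long arm, and the gap was widest for H3K4ox. Peaks covered 5.38% ± 0.23 of 6q and 12.3% ± 0.4 of 6p for H3K4ox (SD, n = 2 lists). RUVBL2 peaks covered 4.63% of 6q and 8.64% of 6p, and H2A.Z peaks 1.49% of 6q and 3.12% of 6p. The median distance between the centres of neighbouring peaks was 11.4 ± 0.2 kb on 6q and 4.78 ± 0.07 kb on 6p for H3K4ox (SD, n = 2 lists), 14.6 kb and 6.96 kb for RUVBL2, and 28.8 kb and 13.3 kb for H2A.Z.

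Per H3K4ox peak, both other antibodies were more frequent on 6q. There were 34.2 H2A.Z peaks per 100 H3K4ox peaks of replicate 1 and 35.4 per 100 of replicate 2 on 6q, with a mean of 34.8 ± 0.9 on 6q against 26.0 ± 0.4 on 6p (SD, n = 2 H3K4ox lists). The ratio of the arms was 1.34 ± 0.01 (SD, n = 2). RUVBL2 had 83.1 ± 2.1 peaks per 100 H3K4ox peaks on 6q and 62.9 ± 1.0 on 6p, a ratio of 1.32 ± 0.01 (SD, n = 2 H3K4ox lists). These SDs hold the spread of the H3K4ox lists alone, since the single H2A.Z and RUVBL2 lists enter both ratios. On the other chromosomes together the values were 14.8 ± 0.2 for H2A.Z and 42.6 ± 0.7 for RUVBL2, so both arms of chromosome 6 lay above them. Without the stretch from 65 to 75 Mb, 6q still had 30.7 H2A.Z peaks per 100 H3K4ox peaks, 1.18 times the 6p value.

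Chromosomes were next divided at their longest peak-free stretch where it reached 1 Mb, which gave 41 arms or undivided chromosomes of at least 10 Mb, without chromosome Y. Among these, 6q ranked 1 for H2A.Z peaks per 100 H3K4ox peaks and 6p ranked 3, with 4q between them at 27.8. The median was 14.1. For RUVBL2 per 100 H3K4ox peaks 6q ranked 2, behind Xq with 99.6, and 6p ranked 3. By density alone 6q was not high: it ranked 37 of 41 in H3K4ox, 15 in H2A.Z and 21 in RUVBL2. With 44.8 H3K4ox peaks per Mb, 6q was close to chromosome 13, with 43.8. Per 100 H3K4ox peaks chromosome 13 had 22.5 for H2A.Z, below 6q but still rank 5 of 41. For RUVBL2 it had 37.8, rank 29. Sparse H3K4ox and many RUVBL2 peaks per H3K4ox peak thus did not always go together.

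**Figure D1:**
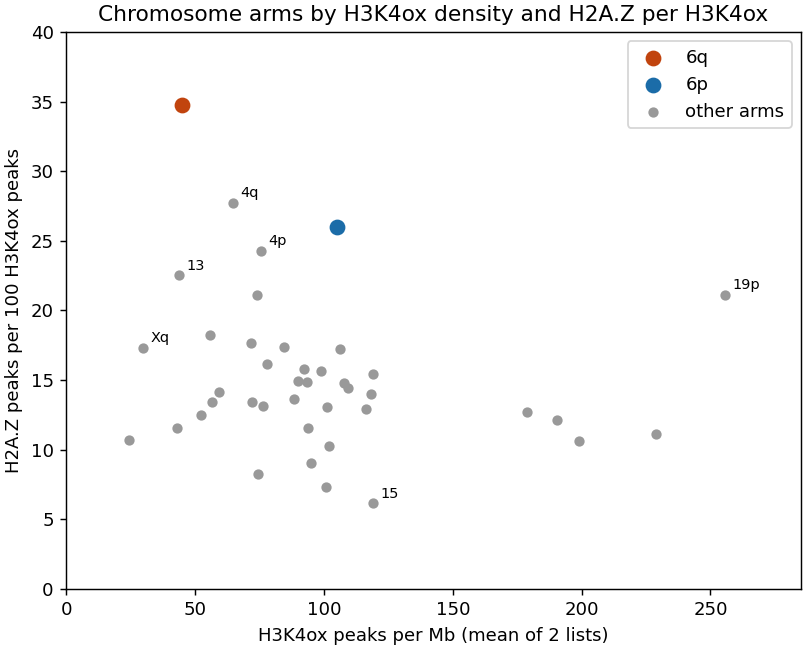
Each point is 1 of 41 chromosome arms or undivided chromosomes, with H3K4ox peaks per Mb (mean of 2 lists) on the x axis and H2A.Z peaks per 100 H3K4ox peaks on the y axis. The long arm of chromosome 6 stands highest, at 34.8 H2A.Z peaks per 100 H3K4ox peaks, with a low H3K4ox density of 44.8 per Mb, and 6p lies at 26.0 and 105.2.

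In steps of 5 Mb the antibodies followed different courses along the arm. Over the 21 full steps H3K4ox density ranged from 28.1 to 66.8 peaks per Mb (mean of 2 lists), with the low at 95 to 100 Mb and the high at 70 to 75 Mb. RUVBL2 ranged from 25 per Mb at 140 to 145 Mb to 61.6 at 70 to 75 Mb. H2A.Z varied most, from 5.80 per Mb at 125 to 130 Mb to 38.6 at 65 to 70 Mb, a 6.66-fold range, while H3K4ox had a 2.38-fold and RUVBL2 a 2.46-fold range. The H2A.Z density was highest near the centromere. The incomplete step from 62 to 65 Mb had 28.3 H2A.Z peaks per Mb, the step from 70 to 75 Mb had 33, and at 75 to 80 Mb the value was 11.0. From 105 Mb to 170 Mb each full step had between 5.80 and 15.8 H2A.Z peaks per Mb. No full step of 6q exceeded the highest H2A.Z density among the full steps of 6p, 46.4 per Mb, and 2 exceeded their median of 32.9. The last stretch, from 170 Mb to the end, held 2 H2A.Z peaks beside 66 and 62 H3K4ox peaks and 23 RUVBL2 peaks.

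**Figure D2:**
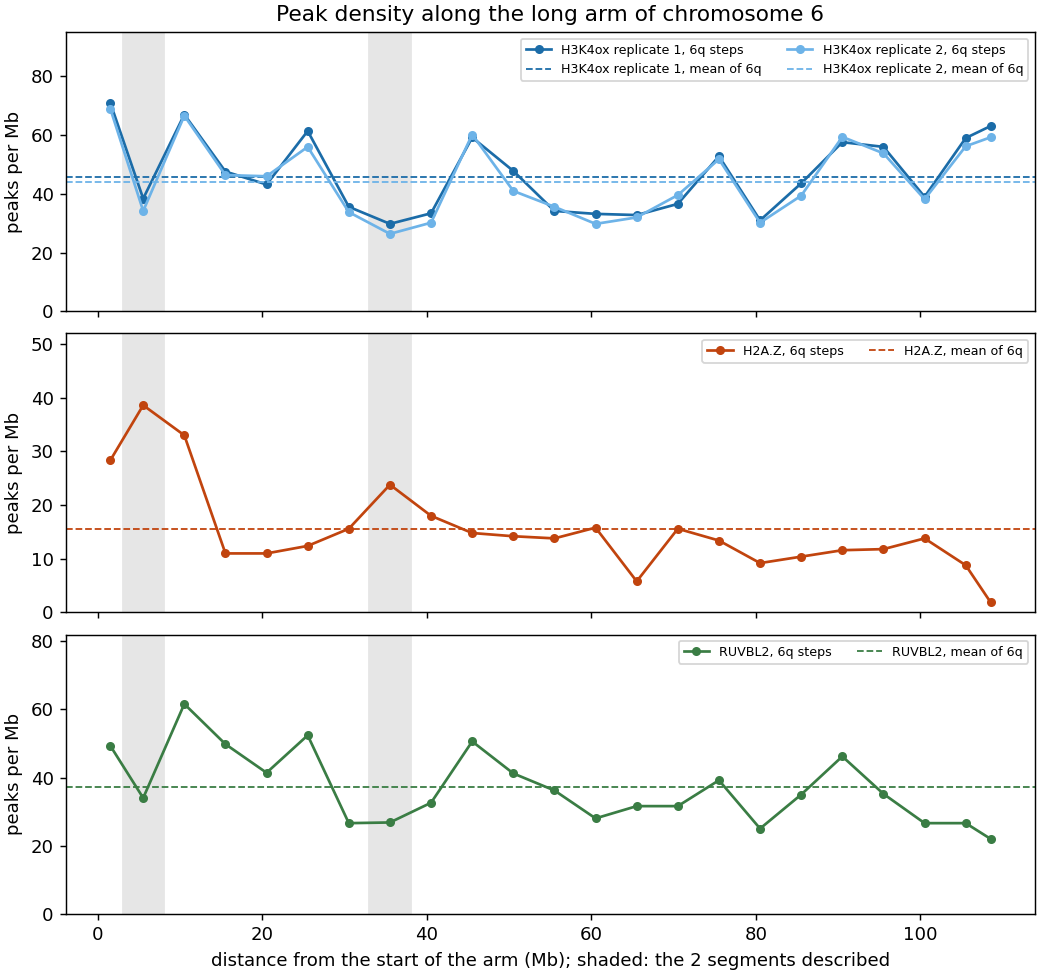
Peaks per Mb in 5 Mb steps of 6q against the distance from position 62 Mb, for H3K4ox (2 replicates, upper panel), H2A.Z (middle) and RUVBL2 (lower); dashed lines are the means of the arm and shading marks the segments 65 to 70 and 95 to 100 Mb. In both shaded segments H2A.Z lies above its mean of 15.6 while H3K4ox lies below its means of 45.6 and 44.05.

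RUVBL2 counts moved along the arm with H3K4ox counts, and H2A.Z counts did so weakly or not at all. Across the 21 full steps the Spearman correlation of counts was 0.73 for RUVBL2 with H3K4ox (mean of 2 lists), -0.17 for H2A.Z with H3K4ox, and 0.05 for H2A.Z with RUVBL2. The H3K4ox replicates had 0.96. In the 109 full steps of 1 Mb on 6q the same values were 0.76, 0.02, 0.19 and 0.94. On 6p, over 57 steps of 1 Mb, they were 0.92 for RUVBL2 with H3K4ox, 0.62 for H2A.Z with H3K4ox, 0.76 for H2A.Z with RUVBL2 and 0.99 between the replicates. Pearson values in the 1 Mb steps of 6q were 0.84 for RUVBL2 with H3K4ox, 0.23 for H2A.Z with H3K4ox and 0.35 for H2A.Z with RUVBL2. The steps of 6q include the 2 segments chosen for their many H2A.Z peaks per H3K4ox peak, and no value without them is given. Steps of 1 arm share libraries and are not independent, so these values are descriptions.

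Relative to H3K4ox, RUVBL2 lay above each full step of 6p over most of 6q, and H2A.Z did so in a few places. RUVBL2 per 100 H3K4ox peaks exceeded the highest full step of 6p (70.04) in 18 of the 21 full steps of 6q. The exceptions lay at the far end, with 64.1 at 155 to 160 Mb, 68.9 at 160 to 165 Mb and 46.2 at 165 to 170 Mb. For H2A.Z 5 steps of 6q exceeded the highest of 6p (48.3, at 25 to 30 Mb). These were 65 to 70 Mb with 106.7 ± 8.7, 95 to 100 Mb with 85.0 ± 7.3, 100 to 105 Mb with 56.7 ± 4.0, 120 to 125 Mb with 50.3 ± 3.8 and 70 to 75 Mb with 49.4 ± 0.2 (SD, n = 2 H3K4ox lists). The median of the H2A.Z values was 30.1 over the 21 steps of 6q and 25.7 over 10 full steps of 6p. This was a smaller gap than for RUVBL2, with 89.1 on 6q and 64.3 on 6p. The 6p median was exceeded in 11 of the 21 steps for H2A.Z and in 19 for RUVBL2. The lowest H2A.Z value of a full step of 6q, 15.3 at 165 to 170 Mb, was still above the 14.8 of the other chromosomes together.

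**Figure D3:**
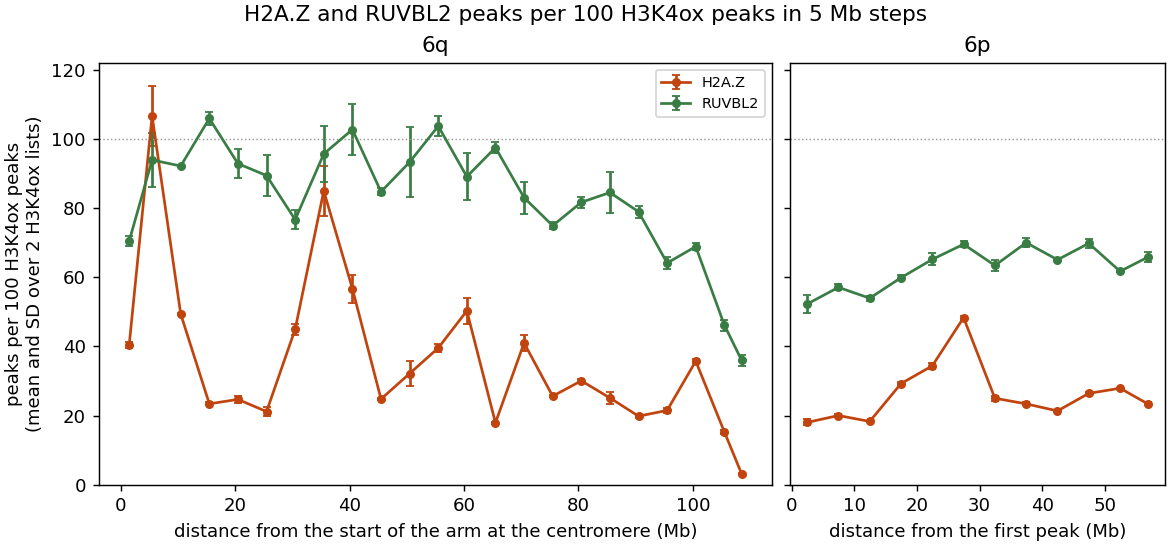
Peaks of H2A.Z and of RUVBL2 for every 100 H3K4ox peaks in 5 Mb steps of 6q (left) and 6p (right), as mean and SD over the 2 H3K4ox lists, with a dotted line at 100. RUVBL2 lies above its 6p values over most of 6q and falls towards the end of the arm, and H2A.Z has 2 separate highs, 106.7 at 65 to 70 Mb and 85.0 at 95 to 100 Mb.

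In the segment from 65 to 70 Mb H2A.Z peaks outnumbered H3K4ox peaks. It held 193 H2A.Z and 170 RUVBL2 peaks beside 192 and 171 H3K4ox peaks of replicates 1 and 2. It thus held 11.4% of the H2A.Z peaks of the arm, 4.19% of its RUVBL2 peaks and 3.71% ± 0.21 of its H3K4ox peaks (SD, n = 2 lists). The H2A.Z peaks were unevenly spread within it: successive steps of 1 Mb from 65 Mb held 7, 35, 66, 47 and 38. Between 67 and 68 Mb the 66 H2A.Z peaks stood beside 35 and 29 H3K4ox peaks and 43 RUVBL2 peaks. The run went on to 71 Mb, where the next step held 47 H2A.Z peaks beside 36 and 33 H3K4ox peaks. H2A.Z outnumbered both H3K4ox lists in 6 of 109 steps of 1 Mb on 6q, of which 4 were those from 67 to 71 Mb and the others began at 94 and 98 Mb. On 6p, where H3K4ox peaks were denser, it did so in 0 of 57 steps. RUVBL2 outnumbered both H3K4ox lists in 13 of 109 steps on 6q and in 0 of 57 on 6p. The segments were chosen for their H2A.Z peaks per H3K4ox peak, so the H2A.Z count is not independent of the choice.

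Peaks of each antibody were wider and higher-scoring in that segment than in most of the arm. The same held in the steps on either side, from 62 to 65 Mb and from 70 to 75 Mb. The median width was 1180 bp for H2A.Z at 65 to 70 Mb, against 813 bp in 6q outside both segments. RUVBL2 had 1461 bp in the segment and 903 bp outside, and H3K4ox 1442 ± 10 bp in the segment and 866 ± 7 bp outside (SD, n = 2 lists). Of the H2A.Z peaks of the segment, 64.2% lay in the upper 50% of the whole list by score, against 48.3% outside both segments. The values were 66.5% and 50.8% for RUVBL2, and 65.8% ± 6.2 and 49.7% ± 1.2 for H3K4ox (SD, n = 2 lists). At 70 to 75 Mb the median widths were 1227 bp for H2A.Z, 1508 bp for RUVBL2 and 1387 ± 88 bp for H3K4ox, and 62.4%, 66.6% and 63.9% ± 0.1 of the peaks lay in the upper 50% by score (SD, n = 2 lists). In the incomplete step from 62 to 65 Mb these shares were 65.9% for H2A.Z, 66.9% for RUVBL2, and 62.4% and 61.4% for H3K4ox. Median widths there were 973 bp for H2A.Z, 1288 bp for RUVBL2, and 1148 and 1080 bp for H3K4ox replicates 1 and 2. In the upper 50% of each list the segment from 65 to 70 Mb still had 104.2 H2A.Z peaks per 100 H3K4ox peaks.

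Most H2A.Z peaks of the segment nevertheless lay away from H3K4ox. Regions made by merging overlapping peaks of both replicates, with at least 1 peak of each, are called H3K4ox shared regions here, and 6q held 2892 of them. In the segment 36 of 193 H2A.Z peaks overlapped one (18.7%, 95% Wilson interval 13.8 to 24.7), where peaks of these widths placed uniformly within the same 5 Mb would overlap one in 9.65% of positions. That is 1.93 times the share at uniform positions, and lower shares were found in other full steps, such as 15.2% at 120 to 125 Mb. RUVBL2 peaks of the same segment did so in 111 of 170 cases (65.3%, 95% Wilson interval 57.9 to 72.04), 6.01 times the 10.9% at uniform positions. Of the H2A.Z peaks, 134 (69.4%) overlapped neither a shared region nor a RUVBL2 peak. The median distance from the centre of an H2A.Z peak to the nearest shared region was 10.8 kb. The H3K4ox replicates matched better here than in any other full step of the arm: 83.1% ± 4.9 of their peaks (SD, n = 2 lists) overlapped a peak of the other.

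Of the 3 best H2A.Z peaks of the segment 2 met no other list, and of the 3 best RUVBL2 peaks 2 met no H2A.Z peak. The H2A.Z peak at 67051249 to 67053749 on chromosome 6 had the highest H2A.Z score there, 421.4, and overlapped no peak of the other lists. The third-best, at 66816734 to 66818140 with a score of 317.0, also stood alone. The second-best, at 67768668 to 67770654 with a score of 394.6, met weak peaks of H3K4ox, scoring 64.52 and 73.92 in replicates 1 and 2, and of RUVBL2, scoring 50.24. The best RUVBL2 peak, at 65159607 to 65163393 with a score of 584.5, met H3K4ox scores of 849.0 and 694.3 and no H2A.Z peak. The next, at 65052123 to 65056585 with a score of 499.0, likewise met H3K4ox (772.0 and 586.0) without H2A.Z. The third-best RUVBL2 peak, at 68004147 to 68009185 with a score of 458.3, met both, with H3K4ox scores of 236.6 and 458.3 and an H2A.Z score of 63.65.

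The segment from 95 to 100 Mb was the sparsest of 6q for H3K4ox. It held 149 and 132 H3K4ox peaks of replicates 1 and 2, 119 H2A.Z peaks and 134 RUVBL2 peaks. Its H2A.Z density of 23.8 peaks per Mb was above the 15.6 of the whole arm and below the 27.4 of 6p. Per 100 H3K4ox peaks there were 95.7 ± 8.2 RUVBL2 peaks (SD, n = 2 H3K4ox lists), close to the 94.0 ± 7.7 of the segment from 65 to 70 Mb. The steps of 1 Mb from 95 Mb held 24, 25, 25, 31 and 14 H2A.Z peaks, a narrower range than at 65 to 70 Mb. The longest stretch without an H2A.Z peak was 311.4 kb. Peak-free stretches of over 100 kb numbered 12 and 11 in the H3K4ox lists, 16 in the H2A.Z list and 12 in the RUVBL2 list, against 5, 5, 8 and 8 at 65 to 70 Mb. The longest stretch of the arm without a peak of any list, 164.0 kb, lay in it, from 95678583 to 95842553. The H2A.Z value depended on where the steps began: with steps moved by 2.5 Mb it was 96.8 ± 13.6 per 100 H3K4ox peaks at 92.5 to 97.5 Mb and 47.5 ± 2.6 at 97.5 to 102.5 Mb (SD, n = 2 H3K4ox lists). At 65 to 70 Mb the moved steps gave 59.98 ± 3.23 (62.5 to 67.5 Mb) and 91.3 ± 2.9 (67.5 to 72.5 Mb) in place of 106.7 (SD, n = 2 H3K4ox lists).

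Widths in the segment from 95 to 100 Mb were close to those of the rest of the arm. H2A.Z had a median of 814 bp there and 813 bp outside both segments, and RUVBL2 880 bp there and 903 bp outside. Of the H2A.Z peaks, 20 of 119 overlapped an H3K4ox shared region (16.8%, 95% Wilson interval 11.2 to 24.5), 3.73 times the 4.51% at uniform positions in the same 5 Mb. For RUVBL2 64 of 134 did (47.8%), 9.32 times the 5.12% at uniform positions. The 3 best H2A.Z peaks, at 96339162 to 96340746 (score 307.5), 99963134 to 99964314 (242.5) and 97928614 to 97930492 (216.4), met no peak of another list. The best RUVBL2 peak, at 96207288 to 96212010 with a score of 701.3, was also the third-best of the arm. It met H3K4ox peaks scoring 446.0 and 401.2 and an H2A.Z peak scoring 64.67. The other two of the 3 best, at 98865710 to 98870168 (score 620.1) and 99653460 to 99657615 (551.9), met H3K4ox in both replicates and no H2A.Z.

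Overlaps over the whole arm were then set against uniform positions on it. For each peak the share of positions on the arm was computed at which an interval of its width would overlap a target by at least 1 bp, and the mean over the peaks is the expected share. Between the H3K4ox replicates, 62.2% of the peaks of replicate 1 and 65.4% of those of replicate 2 overlapped one of the other, a mean of 63.8% ± 2.3 on 6q against 10.1% ± 0.3 expected (SD, n = 2 lists). On 6p the mean was 73.6% ± 1.5, with 22.4% ± 0.4 expected. Of 4062 RUVBL2 peaks on 6q, 1964 overlapped an H3K4ox shared region (48.4%, 95% Wilson interval 46.8 to 49.9), against 7.67% expected. On 6p 62.2% of 3887 did (60.7 to 63.7), with 19.2% expected, and on the other chromosomes 65.2%.

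H2A.Z overlapped H3K4ox least. Of 1699 H2A.Z peaks on 6q, 446 overlapped a shared region (26.3%, 95% Wilson interval 24.2 to 28.4), against 7.03% expected at uniform positions. On 6p the share was 52.1% (49.6 to 54.5), with 18.4% expected, and on the other chromosomes 45.7%. Low shares were not particular to 6q: chromosome 13 had 16.6%, 8p 25.8% and 18q 26.9%, each with sparse H3K4ox. Xp and Xq, where H3K4ox was sparser still, had 37.1% and 34.4%. Expected shares are not given for the other chromosomes. H2A.Z met RUVBL2 in 534 cases on 6q (31.4%, 29.3 to 33.7; 7.86% expected) and in 49.0% on 6p (46.5 to 51.4; 15.2% expected), against 32.8% on the other chromosomes. The intervals of 6q and 6p did not overlap for either pair, and they cover counting error only, treating peaks as independent.

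The order of the arms depended on the measure. Observed over expected was higher on 6q than on 6p: 3.73 against 2.84 for H2A.Z in shared regions, 6.30 against 3.24 for RUVBL2 in shared regions, and 3.997 against 3.22 for H2A.Z with RUVBL2. The excess over the expected share was lower on 6q for both pairs with H2A.Z, at 19.2 percentage points against 33.7 on 6p for shared regions and 23.6 against 33.8 for RUVBL2. For RUVBL2 in shared regions it was 40.7 points on 6q and 43.0 on 6p. A sparse target gives a fold more room to rise, as complete overlap of H2A.Z with the shared regions would be 14.2-fold on 6q and 5.45-fold on 6p. The folds therefore do not rank the arms by how closely the antibodies lay together.

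**Figure D4:**
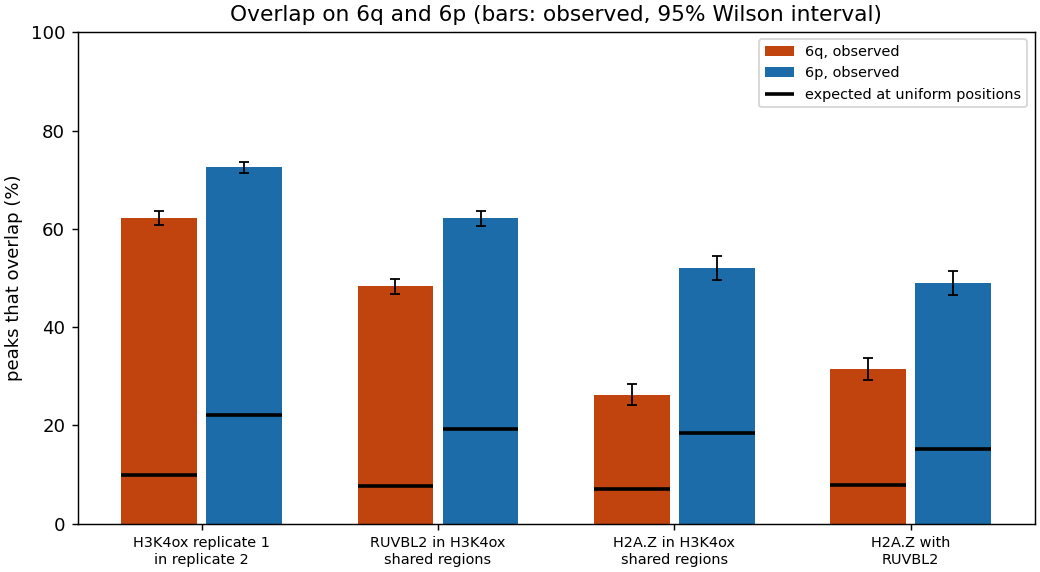
Share of peaks that overlap a target, on 6q and on 6p, with 95% Wilson intervals; black lines mark the share expected at uniform positions on the same arm. Observed shares are lower on 6q for each of the 4 pairs, as for H2A.Z in H3K4ox shared regions (26.3% against 52.1%), and so are the expected shares (7.03% against 18.4%).

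Grouped by the peaks they met, 1048 of the 1699 H2A.Z peaks on 6q (61.7%, 95% Wilson interval 59.3 to 64.0) met neither a shared region nor RUVBL2, against 37.0% on 6p (34.6 to 39.4). A shared region together with RUVBL2 was met by 329 (19.4%) on 6q and by 38.0% on 6p, a shared region alone by 6.89% on 6q and 14.1% on 6p, and RUVBL2 alone by 12.1% on 6q and 11.0% on 6p. The solitary H2A.Z peaks of 6q were much like the rest, with a median score of 66.5 and a median width of 841 bp, against 66.5 and 907 bp where both others were present. The median distance from the centre of an H2A.Z peak to the nearest shared region was 8.13 kb on 6q and 0.07 kb on 6p. Of the centres on 6q 27.9% lay over 20 kb away, against 6.53% on 6p. Shared regions numbered 26.5 per Mb on 6q and 73.8 per Mb on 6p, and sparser targets are farther away and met less often at any position. Values at uniform positions are not given for these groups and distances, so they do not rank the arms by how solitary H2A.Z was.

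RUVBL2 peaks on 6q separated by score and H2A.Z peaks did not. Each list was ordered by score on the arm and cut into 4 classes of the same number of peaks, give or take 1. Among RUVBL2 peaks, 16.2% of the lowest class overlapped an H3K4ox shared region, then 28.1%, 53.7% and 95.5% in the highest. Higher-scoring peaks are wider, and the share expected at uniform positions rose only from 6.44% to 10.2% across these classes. Among H2A.Z peaks the shares from lowest to highest were 26.4%, 25.9%, 28.5% and 24.3%, with 6.48% to 7.97% expected. Of the 50 best RUVBL2 peaks by score, 50 overlapped a shared region. Of the 50 best H2A.Z peaks 17 did, and 23 overlapped an H3K4ox peak of either replicate.

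Seen from the H3K4ox side, 1738 of the 2892 shared regions of 6q held a RUVBL2 peak (60.1%, 95% Wilson interval 58.3 to 61.9). On 6p 51.6% of 4331 regions did (50.1 to 53.1). The arm was chosen for its many RUVBL2 peaks per H3K4ox peak, so this difference is not independent of the choice. No share at uniform positions is given for this direction. An H2A.Z peak was held by 14.9% on 6q (13.7 to 16.3) and 18.5% on 6p (17.3 to 19.7). Shared regions with both were the widest, with a median of 2468 bp on 6q, against 912 bp for those with neither. Wider regions meet other peaks more often at any position. Shared regions overall had medians of 1339 bp on 6q and 1184 bp on 6p.

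The overlap on 6q was centred on the peaks. Shared regions covered 46.1% of RUVBL2 centres on 6q, 24.4% and 28.5% of positions 1 kb before and after them, and 6.40% and 6.55% at 20 kb. At H2A.Z centres on 6q the coverage was 24.96%, with 13.2% and 15.2% at 1 kb and 7.06% and 6.65% at 20 kb. On 6p H2A.Z centres had 49.6% and positions at 20 kb 19.8% and 19.2%.

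Agreement with H3K4ox changed along the arm together with the peak scores. The share of H3K4ox peaks found in the other replicate exceeded 70% in 5 of the 21 full steps, those from 65 to 85 Mb and that from 100 to 105 Mb. It was lowest at 135 to 140 Mb, with 47.1% ± 2.3 (SD, n = 2 lists). The median H3K4ox score was 115.6 ± 9.6 at 65 to 70 Mb and 68.6 ± 1.2 at 135 to 140 Mb (SD, n = 2 lists). Across the 21 steps the Spearman correlation of the median H3K4ox score was 0.97 with replicate agreement, 0.89 with the median RUVBL2 score and 0.95 with the share of RUVBL2 peaks in shared regions. With the share of H2A.Z peaks in shared regions it was 0.23 (Pearson 0.48), with the median H2A.Z score 0.36, and with H3K4ox density -0.23. Shared regions need a peak of each replicate, so shares in them are tied to replicate agreement. The share of RUVBL2 peaks at uniform positions of the step also differed, with 10.9% at 65 to 70 Mb and 5.27% at 135 to 140 Mb. Observed over expected was 6.01 and 5.61 there, and highest at 90 to 95 Mb, with 10.2. These are descriptions over steps of 1 arm in the same libraries, and the part of width in them was not tested: the median H3K4ox width was 1442 bp at 65 to 70 Mb and 734 bp at 135 to 140 Mb.

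**Figure D5:**
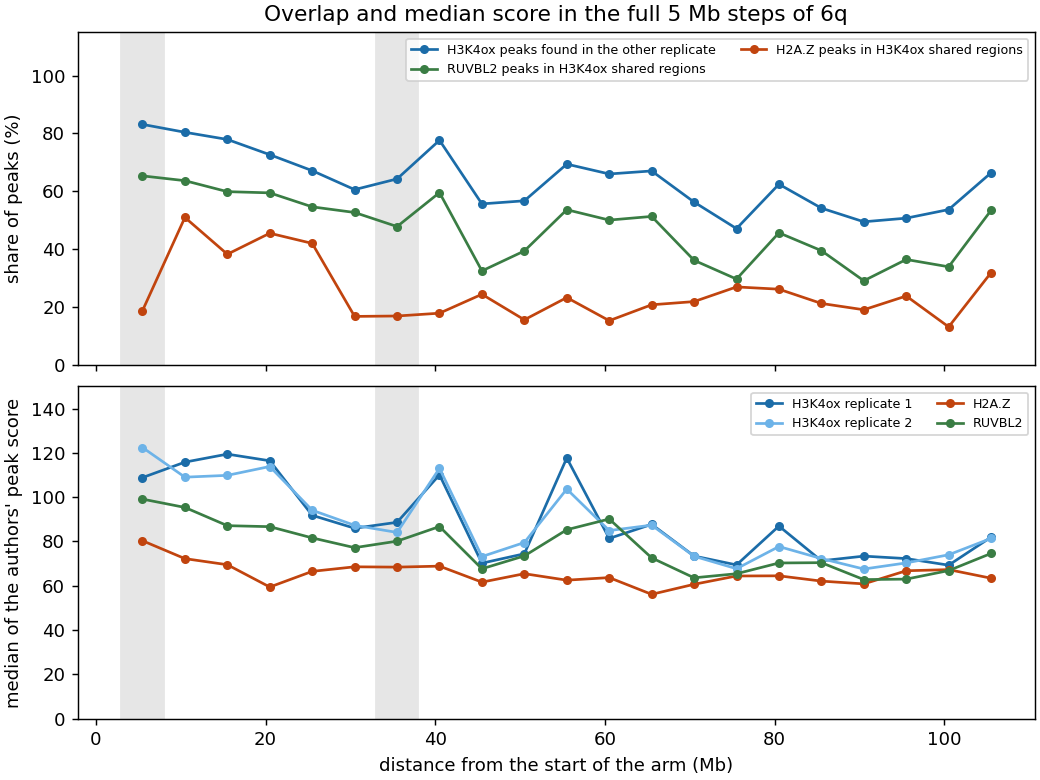
Upper panel, share of H3K4ox peaks found in the other replicate and of RUVBL2 and H2A.Z peaks in H3K4ox shared regions; lower panel, median peak score of each list; both in the 21 full 5 Mb steps of 6q against the distance from position 62 Mb, with the segments 65 to 70 and 95 to 100 Mb shaded. Replicate agreement is 83.1% in the first full step and 47.1% at 135 to 140 Mb. Between these steps the RUVBL2 share goes from 65.3% to 29.6% and the H2A.Z share from 18.7% to 26.9%. Shares expected at uniform positions are not drawn, and for RUVBL2 they go from 10.9% to 5.27%.

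The strongest sites differed by antibody. The best H3K4ox shared region of 6q lay at 167798312 to 167803103 (score 3100 in both replicates) and held a RUVBL2 peak of score 101.6 and no H2A.Z peak. The next 4 lay at 170803518 to 170806265, 167846138 to 167847440, 169713575 to 169716689 and 169771579 to 169773333, so the 5 best were all in the last 5 Mb of the arm. Only the last of these held the other antibodies, with scores of 50.64 for H2A.Z and 54.07 for RUVBL2. There RUVBL2 and H2A.Z were scarce, with 46.2 and 15.3 peaks per 100 H3K4ox peaks at 165 to 170 Mb.

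The best RUVBL2 peak lay at the other end, at 62480383 to 62486962 (score 1031), with H3K4ox scores of 634.2 and 467.5 and no H2A.Z. The others of the 5 best were spread along the arm, at 136323822 to 136327299 (score 783.8), 96207288 to 96212010 (701.3), 142900044 to 142904136 (694.9) and 126995834 to 127000304 (674.5). Each of the 5 overlapped H3K4ox in both replicates, and 3 held an H2A.Z peak, with scores between 54.34 and 82.99.

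Of the 5 best H2A.Z peaks, 4 lay outside H3K4ox shared regions. The best, at 82958085 to 82959921 (score 678.6), and the next, at 144416625 to 144417986 (589.9), met no peak of another list. That at 108582522 to 108584487 (566.6) met a RUVBL2 peak of score 89.99, and that at 166510665 to 166511943 (483.5) met a peak of H3K4ox replicate 2 scoring 52.35. The exception, at 74274401 to 74279991 (564.0), was 5591 bp wide and held H3K4ox scores of 133.8 and 116.8 and a RUVBL2 score of 92.83.

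The 5 sites that ranked best for the 3 antibodies together lay in 1 step, the densest of the full steps for H3K4ox and RUVBL2. They were 74020049 to 74024474, 74260360 to 74266600, 70271824 to 70276537, 70192048 to 70196438 and 74155534 to 74161033, so that 2 lay shortly after 70 Mb and 3 shortly after 74 Mb. At the first, H3K4ox scored 714.9 and 626.2, H2A.Z 242.1 and RUVBL2 415.9. At the next, which lay shortly before the wide H2A.Z peak named above, the scores were 454.7 and 417.8 (H3K4ox), 425.7 (H2A.Z) and 444.6 (RUVBL2). The step from 74 to 75 Mb held 150 and 150 H3K4ox, 71 H2A.Z and 132 RUVBL2 peaks, the most of any 1 Mb step of 6q for H2A.Z and for RUVBL2. In the step from 70 to 75 Mb 50.9% of 165 H2A.Z peaks lay in shared regions (95% Wilson interval 43.3 to 58.4). This was the highest share of the 21 full steps, next to the segment where 18.7% did. The shares at uniform positions also differed, with 17.0% at 70 to 75 Mb and 9.65% at 65 to 70 Mb. Observed over expected was 2.99 and 1.93 there, both below the median of 3.77 over the 21 full steps.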

How the data were processed

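The authors deposited 1 peak list per library (hg19, per the submitters' processing notes, which also name Bowtie and TopHat). Peaks are named after MACS, per the peak names. Each carries a score written by the authors' caller, and no label or header states its unit or the caller's version and settings. The track lines of the H3K4ox lists name an input, those of H2A.Z and RUVBL2 do not, and each holds the word multilocus, so peaks at repeats or at segments of altered copy number may be treated differently between lists.

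The arm, the segments and the rules for naming sites were chosen with earlier results of these data known. Peaks were assigned by their centre and overlapped when they shared at least 1 bp. Expected shares were computed exactly over all positions of an arm or step, with no shuffling and no p-value; the calculation was tested on simulated data. Intervals are 95% Wilson intervals. Named sites were the 5 best of each antibody and of the 3 together, and the 3 best H2A.Z and RUVBL2 peaks of each segment. No hg19 genome or annotation was used, so no sequence or gene is given and the gene list planned for start sites was not run. Python 3.11.15, numpy 2.4.6, pandas 2.3.3, scipy 1.17.1 and matplotlib 3.10.9 were used. The other 11 samples were not analysed here.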

Additional observations from a re-analysis of the deposited data

How the results depend on the processing

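Each alternative kept 6q above 6p in peaks per H3K4ox peak, and observed above expected overlap on 6q. The alternatives used the same lists by which the arm was chosen, so they are no independent evidence for the ratios. With only the better-scoring 50% of each list, the ratio of 6q to 6p was 1.24 for H2A.Z and 1.29 for RUVBL2, and RUVBL2 had 85.3 peaks per 100 H3K4ox peaks. Counting H3K4ox shared regions in place of peaks gave 58.7 H2A.Z and 140.5 RUVBL2 peaks per 100 regions, which are fewer than peaks, and ratios of 1.58 and 1.56. Leaving out 65 to 75 Mb, chosen after seeing the data, gave 30.7 H2A.Z peaks per 100 and ratios of 1.18 (H2A.Z) and 1.30 (RUVBL2), and leaving out 25 to 35 Mb of 6p, also chosen afterwards, 1.45 and 1.34. Without 5 Mb at the ends of both arms the RUVBL2 ratio was 1.37. Leaving out either H3K4ox replicate gave H2A.Z ratios of 1.33 to 1.34 and RUVBL2 ratios of 1.31 to 1.33.

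Folds over uniform positions moved most with the overlap rule and the width of the intervals. With at least 50% of a peak covered they were 12.4 between H3K4ox replicates, 5.36 for H2A.Z in shared regions, 10.2 for RUVBL2 in shared regions and 6.27 for H2A.Z with RUVBL2. With 200 bp intervals at the centres of peaks and regions they were 24.1, 8.84, 17.6 and 9.86. In the upper 50% by score they were 10.8 between replicates and 10.6 for RUVBL2 in shared regions. Against positions within the same 5 Mb step they were 5.92, 3.35, 5.78 and 3.63. With a single H3K4ox list in place of shared regions, RUVBL2 had 5.41 to 5.60 and H2A.Z 3.65 (either list).

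The highest over the lowest step was 2.92 (H3K4ox), 11.3 (H2A.Z) and 4.02 (RUVBL2) in the upper 50% by score, and 2.93, 4.92 and 2.94 with steps moved by 2.5 Mb. So moved, the steps over 65 to 70 Mb had 59.98 and 91.3 H2A.Z peaks per 100 H3K4ox peaks, those over 95 to 100 Mb had 96.8 and 47.5, and RUVBL2 had 106.6 at 97.5 to 102.5 Mb and 97.7 at 92.5 to 97.5 Mb. At 95 to 100 Mb the upper 50% by score gave 106.0 RUVBL2 peaks per 100. The causes were not tested. No paired analysis was possible because the H2A.Z and RUVBL2 groups have 1 list each and no result comes from a test. Depth is unknown, and the number of peaks limits the precision.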
